A study of Rattus norvegicus with 3 samples.

Results

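The Id and Hes repressors are transcriptional inhibitors of the helix-loop-helix superfamily, here the 10 genes Id1, Id2, Id3, Id4, Hes1, Hes2, Hes3, Hes5, Hes6 and Hey1. They were chosen by gene symbol, and every array probe carrying one of those symbols was taken, which gave 16 of the 41012 rat probes on the array, whose probes carry 33867 distinct gene names. The 4 Id genes had 9 probes and the 6 Hes and Hey genes had 7, each probe was printed as 1 spot, and 6 of the genes had 1 probe only. Rat iPS M13 cells, an induced pluripotent stem cell line, were compared with mix1, a single RNA mix made from cultured rat bone marrow cells and cultured rat primary ear fibroblasts. Neither received a treatment. Total RNA of the 3 iPS M13 samples was labelled with Cy3 and mix1 with Cy5 on each of 3 two-colour arrays, so every ratio below is iPS M13 over mix1 and negative values mean less in iPS M13. The iPS M13 cells grew on irradiated mouse embryonic fibroblast feeders. The labels do not say whether the 3 samples were separate cultures, so each p-value reflects how much these 3 samples vary, and that variation may be technical. The same mix1 served on every array, so its own spread is not in the test, and without a dye swap the dye and the cell source cannot be told apart.

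Id proteins have a helix-loop-helix domain but no DNA-binding basic region, and they sequester the E proteins that tissue-specific basic helix-loop-helix (bHLH) activators need as partners. Their genes are well-known targets of BMP signalling through SMAD proteins, a route linked to the undifferentiated state of mouse embryonic stem cells. Hes and Hey proteins do bind DNA, recruit Groucho/TLE corepressors and are best known as targets of Notch signalling, with Hes1 acting on its own promoter in a negative feedback loop.

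Of the 10 genes, 6 were lower in iPS M13 cells than in mix1 by every probe, namely Id1, Id2, Id3, Id4, Hes1 and Hes6. Among the 5 of these measured in both RNAs, Id3 had the largest difference, at 57.9- to 87.1-fold lower by its 3 probes, and Hes6 the smallest, at 2.58- and 2.80-fold lower. Hes1 has only a bound, at least 15.9-fold lower, and is not ranked. No member was called higher. Hes3 differed by less than 2-fold, and Hes2, Hes5 and Hey1 were too dim to be tested. A probe was tested if it was well above background, by the scanner software's flag, in the same RNA on all 3 arrays, and a call needed an adjusted p below 0.05 with a difference of 2-fold or more (limma, Benjamini-Hochberg over all tested probes). Of the 16 member probes 13 were tested, 12 were called lower, 0 higher and 1 neither, beside 25.1% of the 24149 tested probes called lower and 18.5% called higher. The median log2 ratio of the 13 tested member probes was -2.12 against -0.02 over all tested probes. The Hes1 probe was tested only because mix1 passed the filter, so a low ratio was built into its selection, while 11 member probes were well above background in both RNAs on all arrays. Because mix1 is a mix of whole cultures, fewer cells of a type and less RNA per cell cannot be told apart.

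**Figure D1:**
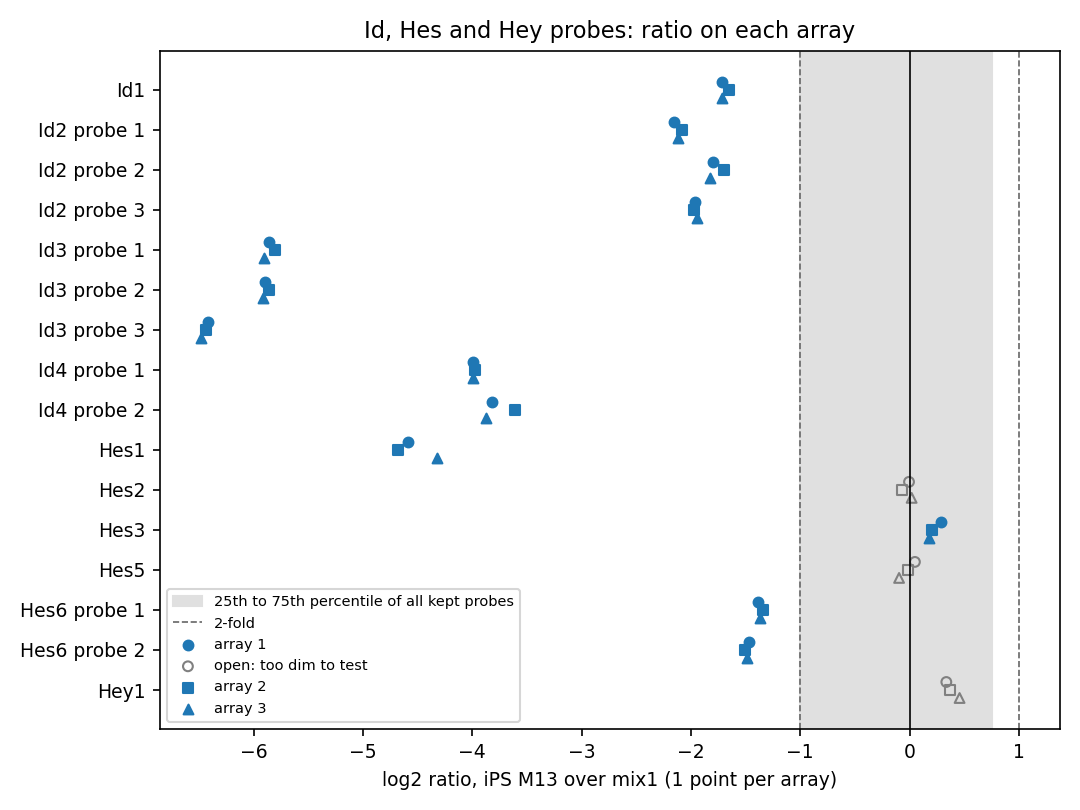
Log2 ratio of iPS M13 over mix1 (horizontal axis) for each of the 16 member probes (rows), with 1 point per array, open points for probes too dim to test, probes of a gene numbered in the order of their identifiers, dashed lines at a 2-fold difference and a grey band over the interquartile range of all tested probes. The Id3 points lie between -5.80 and -6.48, the Id1, Id2 and Hes6 points between -1.34 and -2.15, and those of Hes2, Hes3, Hes5 and Hey1 inside the 2-fold lines.

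The arrays were of similar brightness and quality. Median spot signals were 272 to 291 in Cy3 and 228 to 254 in Cy5, against negative control medians of 76.0 to 77.4 and 60.9 to 63.7. Between 52.3% and 60.9% of probes were well above background per channel, and log2 ratios correlated between arrays at 0.997 to 0.998 across probes, which are not independent replicates. No member spot was saturated or marked as an outlier. The labelled cell types were checked against marker lists. Of 7 pluripotent markers 6 were called higher and 0 lower in iPS M13 cells, including the DNA methyltransferase Dnmt3b at a log2 ratio of 4.11 ± 0.08 and the threonine dehydrogenase Tdh at 3.13 ± 0.01 (SD, n = 3). Pou5f1 was at least 2.48-fold higher, a bound because mix1 was well above background on 0 arrays. Lin28a was the 1 marker not called, at -0.15 ± 0.04. All 7 fibroblast markers and all 6 blood and macrophage markers were called lower, with medians of -8.82 and -6.63 (-8.02 and -6.25 with 2 genes of each at their bounds). The collagen gene Col3a1 was at -10.79 ± 0.16, the proteoglycan gene Dcn at -10.37 ± 0.10, the monocyte receptor Cd14 at -7.49 ± 0.06 and the lysozyme gene Lyz2 at -7.43 ± 0.06. Of 5 measured neural markers 4 were called higher, among them Stmn2 at 2.58 ± 0.03 and Nes at 1.06 ± 0.02. Of 2 measured endothelial markers, Kdr was at -0.86 ± 0.10 and not called, and Tek was at least 3.46-fold higher. In iPS M13 cells the fibroblast marker levels still ranged from 6.22 to 12.87, with 5 of 7 well above background on all arrays, against 11.67 to 18.52 in mix1. The blood and macrophage markers ranged from 6.29 to 9.79 in iPS M13 cells and from 7.92 to 16.51 in mix1, and 2 of each list were not well above background in iPS M13 cells on any array. The part of these cell types and of mouse feeder RNA in the member results was not tested.

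Id3 was read by 3 probes on chromosome 5 (plus strand, build rn3 per the file headers). The first pair overlap, and the bases they share are in capitals below, since their agreement is then not independent. Each is 60 bases long and maps across 175 bases.
Id3 A_44_P139744 (chr5:154944495-154944669): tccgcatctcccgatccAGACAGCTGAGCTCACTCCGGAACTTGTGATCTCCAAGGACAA
Id3 A_44_P276352 (chr5:154944512-154944686): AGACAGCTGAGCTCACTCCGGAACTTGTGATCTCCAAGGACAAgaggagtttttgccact
The shared run is 43 bases long. The third probe, A_44_P458074 (chr5:154945376-154945435), lies apart from both.

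For Id3 the normalised log2 levels of A_44_P458074 were 9.66, 9.84 and 9.70 in iPS M13 replicates 1, 2 and 3 and 16.08, 16.27 and 16.18 in mix1 on the same arrays. The groups did not overlap, and the mix1 spots gave raw signals of 49410 to 67120. The mean log2 ratio of this probe was -6.44 ± 0.03 (SD, n = 3), an 87.1-fold lower level in iPS M13 cells (limma adjusted p = 5.93e-07), and 0.911% of all tested probes had a ratio as low or lower. Of the overlapping pair, A_44_P139744 gave -5.86, -5.80 and -5.90 on the 3 arrays (mean -5.86 ± 0.05, 57.9-fold lower, limma adjusted p = 6.01e-07). Its partner A_44_P276352 gave -5.90, -5.86 and -5.92 (mean -5.89 ± 0.03, 59.4-fold lower, limma adjusted p = 5.93e-07). These 2 probes differed by 0.03 ± 0.02 on the log2 scale, whereas A_44_P139744 was above the distant probe by 0.59 ± 0.04 and A_44_P276352 by 0.55 ± 0.03. In iPS M13 cells all 3 Id3 probes remained well above background on every array, with raw signals between 1017 and 1496, so the lower level was measured and is not a bound.

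Id4, known for roles in the nervous system, was read by 2 probes on chromosome 17 (minus strand, rn3), A_44_P127869 at chr17:22525981-22526040 and A_44_P481915 at chr17:22525459-22525518. The first gave log2 levels of 9.38, 9.28 and 9.40 in iPS M13 replicates 1, 2 and 3 and 13.38, 13.26 and 13.39 in mix1. The levels did not overlap, and the array-to-array spread of the ratio was small (mean -3.99 ± 0.01, 15.9-fold lower, limma adjusted p = 5.93e-07). The second probe gave 7.78, 7.86 and 7.74 in iPS M13 cells and 11.60, 11.47 and 11.61 in mix1. Its ratio was -3.77 ± 0.14 (13.6-fold lower, limma adjusted p = 5.00e-06), and the first probe minus the second was -0.22 ± 0.13.

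Id2, which is known for roles in lymphoid and neural lineages, was read by 3 probes on chromosome 6 (minus strand, rn3). The probe printed here gave the smallest difference of the 3 and had 55.0% GC.
Id2 A_44_P170710 (chr6:42786238-42786297): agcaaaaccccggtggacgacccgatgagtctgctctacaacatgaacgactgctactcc
Its log2 levels were 9.34, 9.27 and 9.38 in iPS M13 replicates 1, 2 and 3 and 11.14, 10.96 and 11.21 in mix1, for a ratio of -1.77 ± 0.07 (3.42-fold lower, limma adjusted p = 6.95e-06). A_43_P11685 (chr6:42785674-42786023, a span of 350 bases) gave levels of 10.57, 10.50 and 10.59 against 12.72, 12.58 and 12.71, a ratio of -2.12 ± 0.03 (4.34-fold lower, limma adjusted p = 1.57e-06). A_44_P177058 (chr6:42784165-42784224) gave 12.94, 13.02 and 12.85 against 14.89, 14.99 and 14.80, a ratio of -1.96 ± 0.01 (3.89-fold lower, limma adjusted p = 1.05e-06). Every iPS M13 level was below every mix1 level of the same probe. A_43_P11685 minus A_44_P170710 was -0.34 ± 0.05 and minus A_44_P177058 was -0.16 ± 0.04, each smaller than the difference between the RNAs.

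Id1, a classical BMP target, was read by 1 probe, A_42_P723173 on chromosome 3 (chr3:142992779-142992838, plus strand, rn3). Its log2 levels were 12.52, 12.54 and 12.36 in iPS M13 replicates 1, 2 and 3 and 14.23, 14.19 and 14.08 in mix1. All 3 arrays gave a lower level in iPS M13 cells, and the ratio was -1.70 ± 0.03 (3.24-fold lower, limma adjusted p = 2.42e-06). With each array centred on its median in place of loess normalization the Id1 ratio was -0.89 and no longer passed the 2-fold minimum. That centring used all probes on the array, dim ones included, and moved the median of the tested probes up by 0.59. Relative to the median of the tested probes Id1 was at -1.46 there against -1.68 here.

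**Figure D2:**
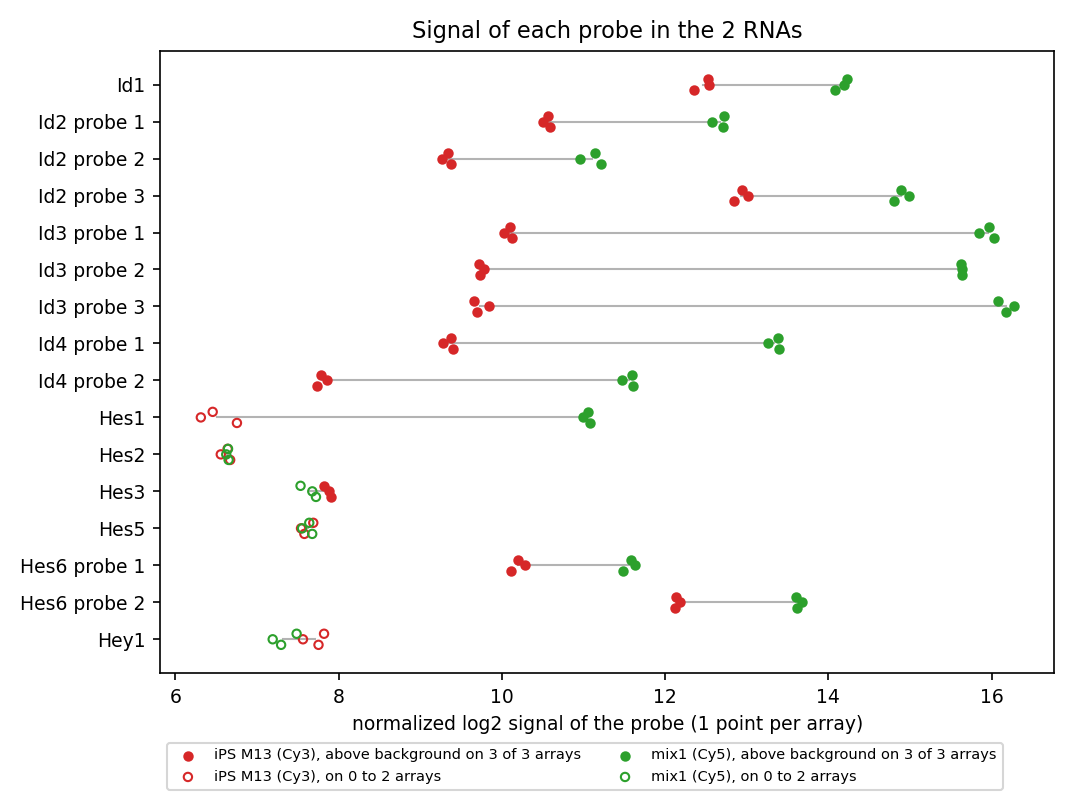
Normalised log2 level (horizontal axis) of each member probe (rows) in the 3 iPS M13 samples and in mix1 on the same arrays, 1 point per array and RNA, drawn open where that RNA was well above background on 0 to 2 arrays. The iPS M13 and mix1 points of Id1, Id2, Id3, Id4, Hes1 and Hes6 do not overlap, and only differences within a probe can be read, since probes differ in brightness.

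Among the Hes genes, Hes1, the Notch-responsive repressor that oscillates in many progenitor cells, was read by 1 probe on chromosome 11 (minus strand, rn3), shown because the iPS M13 signal of Hes1 rests on it alone.
Hes1 A_44_P435739 (chr11:72662727-72662786): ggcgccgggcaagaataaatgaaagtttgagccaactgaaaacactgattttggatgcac
The raw Hes1 signals were 108, 108 and 143 in iPS M13 replicates 1, 2 and 3, not well above background on any array, against 1650, 2060 and 1716 in mix1. The log2 levels were 6.46, 6.31 and 6.76 against 11.05, 10.99 and 11.08, and the measured ratio was -4.53 ± 0.18 (limma adjusted p = 6.35e-06). Since the dim side has only a bound, Hes1 was at least 15.9-fold lower in iPS M13 cells. That bound sets the mean mix1 level against the higher, on each array, of the probe's own level and the lowest signal of any probe well above background. Those lowest iPS M13 levels were 6.96, 6.80 and 7.39 on replicates 1, 2 and 3. Hes5 lay above them in iPS M13 cells, at 7.69, 7.54 and 7.58, yet was well above background on only 2 arrays. A signal above that limit can still fail the flag, so the bound is not strict. The other bounds given here were set the same way. With the scanner software's processed signals the measured ratio was -6.26, beside -5.59 to -6.25 for the Id3 probes, so Hes1 and Id3 have no settled order.

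Hes6, an unusual family member that inhibits Hes1 and favours neural differentiation, was read by 2 probes on chromosome 9 (minus strand, rn3). The printed probe is the one with the smallest difference among the called members.
Hes6 A_42_P800656 (chr9:90845489-90845548): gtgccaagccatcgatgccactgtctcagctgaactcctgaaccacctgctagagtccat
Its log2 levels were 10.20, 10.29 and 10.11 in iPS M13 replicates 1, 2 and 3 and 11.58, 11.63 and 11.48 in mix1, a ratio of -1.36 ± 0.02 (2.58-fold lower, limma adjusted p = 2.36e-06). A_44_P143922 (chr9:90844889-90844948) gave 12.13, 12.18 and 12.12 against 13.60, 13.68 and 13.61, a ratio of -1.49 ± 0.01 (2.80-fold lower, limma adjusted p = 1.69e-06). The groups did not overlap, and the Hes6 probes differed by 0.12 ± 0.03. With median centring the ratios were -0.55 and -0.66 and missed the 2-fold minimum. Relative to the median of all tested probes they were -1.12 and -1.23 under that setting against -1.35 and -1.47 here.

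Hes3, reported in neural stem cells, was well above background in iPS M13 cells on all 3 arrays and in mix1 on 1 (A_43_P12295, chr5:169527210-169527269, minus strand, rn3). Its log2 levels were 7.82, 7.88 and 7.90 in iPS M13 replicates 1, 2 and 3 and 7.54, 7.68 and 7.72 in mix1, so the groups did not overlap. The ratio of 0.22 ± 0.06 (1.17-fold, limma adjusted p = 2.31e-03) did not reach the 2-fold minimum. Relative to the median of all tested probes it was 0.24 here and -0.12 with median centring, so its direction against the other genes depends on the normalization.

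The remaining members were not measured. In neither RNA was Hes2 (A_44_P353520, chr5:169400065-169400204, plus strand, rn3) well above background, on any of the 3 arrays. Its log2 levels were 6.64, 6.56 and 6.67 in iPS M13 replicates 1, 2 and 3 and 6.65, 6.62 and 6.65 in mix1. Hes5 (A_43_P12436, chr5:171774881-171774940, plus strand, rn3), a Notch target of neural progenitors, was well above background in each RNA on 2 of 3 arrays. Hes5 levels were 7.69, 7.54 and 7.58 against 7.64, 7.55 and 7.68 and overlapped. Hey1 (A_44_P527075, chr2:95120914-95120973, plus strand, rn3), a repressor of the cardiovascular system, was well above background in iPS M13 cells on 2 arrays and in mix1 on none. Hey1 levels were 7.82, 7.57 and 7.76 in iPS M13 replicates 1, 2 and 3 and 7.49, 7.19 and 7.30 in mix1. The Hey1 groups did not overlap, yet the mix1 signal has only a bound. No test was made for these 3 genes.

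Probes of different members had little sequence in common, and the longest run they shared was 9 bases, between Id4 and Hes5. Under the 6 other settings of background correction and normalization, all 12 called member probes kept a negative ratio. Not all of these settings are independent, since the value table repeated the member ratios of the processed signals. The Id2, Id3, Id4 and Hes1 probes were called lower under each of these settings, and Id1 and Hes6 were not called under median centring or without within-array normalization. Removal of a smooth trend with probe GC content brought the Hes6 ratios relative to the median of all tested probes to -0.79 and -1.03.

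**Figure D3:**
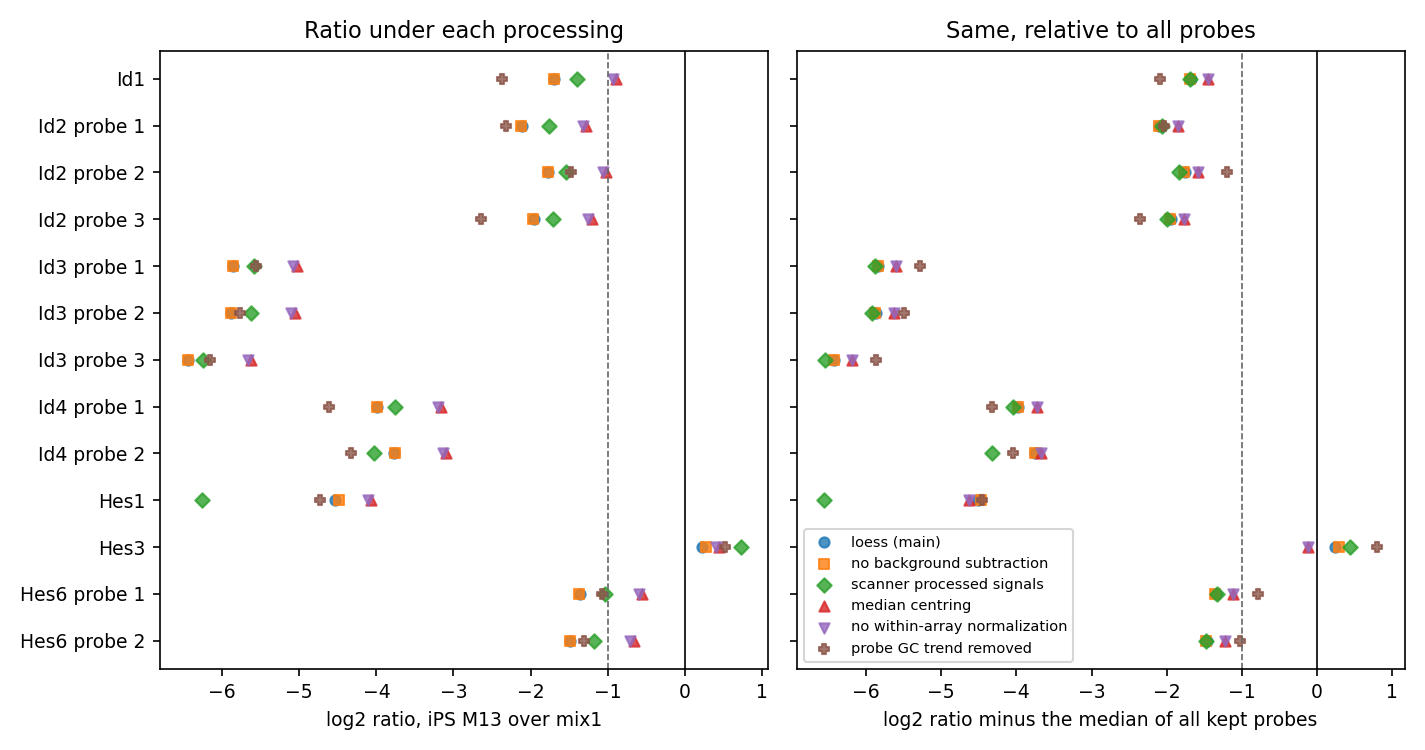
Log2 ratio of iPS M13 over mix1 (horizontal axes) of each tested member probe (rows) under each setting of background correction and normalization, as measured (left) and relative to the median of all tested probes (right), with dashed lines at a 2-fold lower level. In the right panel the Id3, Id4 and Hes1 points lie between -3.67 and -6.55, and Hes3 lies on both sides of 0.

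The promoters of the members were read from the RefSeq table of build GRCr8, which held 8 of the 10 and not Hes3 or Hey1. Each window had 300 bases, 250 before the start and 50 after it, and 33469 promoters of that length were searched on both strands. The promoters of Hes1 and Id3 are printed from 250 bases before the start to the start, because these genes had the largest differences of their families and the promoters differ in the motifs found. Capitals mark matches to TGGGAA, the core of the site of the Notch effector RBPJ.
Hes1 promoter (GRCr8, chr11:84213046-84213295, minus strand): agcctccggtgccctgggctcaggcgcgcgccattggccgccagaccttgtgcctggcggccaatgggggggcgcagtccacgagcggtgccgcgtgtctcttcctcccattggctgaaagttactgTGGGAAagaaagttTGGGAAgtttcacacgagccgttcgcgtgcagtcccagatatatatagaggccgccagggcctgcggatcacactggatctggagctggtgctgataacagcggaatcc
Id3 promoter (GRCr8, chr5:153656041-153656290, plus strand): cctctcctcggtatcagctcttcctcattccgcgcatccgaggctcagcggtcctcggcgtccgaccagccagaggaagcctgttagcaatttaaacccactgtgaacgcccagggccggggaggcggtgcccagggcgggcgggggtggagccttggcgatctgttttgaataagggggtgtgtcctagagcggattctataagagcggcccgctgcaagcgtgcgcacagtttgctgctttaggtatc
The Hes1 promoter held 2 TGGGAA matches, 123 and 109 bases before the start, whereas 3.85% of all promoters held 2 or more and 25.7% held any. It also held 4 matches to CACNAG, the N-box that Hes proteins bind, at 204, 171, 97 and 24 bases before the start, beside 43.1% of promoters with any and 11.2% with 2 or more. Hes5 likewise held 2 TGGGAA matches, at 242 and 98 bases before the start, and 4 matches to GGCGCC, a SMAD site found in 11.0% of promoters. The Hes6 window held 2 N-box matches and 1 match to the E-box CANNTG, and Hes2 held 1 of each. The Id3 window held no match to any of the 5 motifs searched, which were the N-box, the E-box, the RBPJ core, the SMAD site above and a SMAD box, GTCTGT. Among the other Id genes, CANNTG was found once each in Id1 and Id2, beside 72.1% of promoters, CACNAG once in Id2 and GGCGCC once in Id4 after the start. GTCTGT, found in 16.6% of promoters, was in none of the 8. No 6 letters can match 2 of these motifs at the same place, and a match is a description of the letters only.

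Of the 3 E proteins, which Id proteins bind, 2 were called lower and 0 higher, beside 25.8% of the 19725 genes called lower and 18.7% called higher when each gene was read by its brightest tested probe. Tcf4 had a ratio of -2.27 ± 0.01 (SD, n = 3, limma adjusted p = 8.57e-07), Tcf12 of -1.08 ± 0.01 (limma adjusted p = 3.05e-06) and Tcf3 of -0.44 ± 0.01, under 2-fold. The count fell to 1 with the processed signals or with median centring.

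Of 34 tissue-specific bHLH factors, the usual E protein partners, 32 were on the array and 10 were measured. The list is named activators here, although not all its genes, Msc among them, act as activators. Of the 10 measured, 4 were called higher and 2 lower, beside 18.7% and 25.8% of all genes. The median was 0.76 (0.54 with 3 genes at their bounds) against -0.03 over all genes. The trophoblast regulator Ascl2 (1.38 ± 0.25, limma adjusted p = 4.95e-04) and Msc (1.01 ± 0.07, limma adjusted p = 3.40e-05) were higher in iPS M13 cells, with both RNAs well above background on all arrays. Neurog1, a neuronal determination factor, and Bhlha15 were the other 2. Neurog1 had mean log2 levels of 11.83 in iPS M13 cells and 7.83 in mix1, with mix1 well above background on 1 array. Bhlha15 was at least 2.35-fold higher, a bound because no array had mix1 well above background. Its measured log2 ratio was 1.28 ± 0.08. The lowest mix1 level of any probe well above background was 4.72 on replicate 2, against 7.35 and 7.14 on replicates 1 and 3. That low value enters each bound in which mix1 is the dim side, Tek above included, and makes it less strict. The mesenchymal regulator Twist1 was lower, at -5.17 ± 0.04 (limma adjusted p = 5.97e-07) and -4.36 by its other probe. Twist2 was lower at -5.52 ± 0.18, with iPS M13 cells well above background on 1 array. When both RNAs had to be well above background, 2 were higher and 1 lower and the median was -0.18. It was -0.09 with no filter on dim probes and 1.51 with processed signals.

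Of 6 related repressors 3 were measured, and all 3 were called lower, beside 25.8% of all genes. Their median was -4.60 (-2.00 with no filter on dim probes, and -3.30 over the 2 genes with both RNAs well above background). They were the segmentation clock gene Hes7 at -2.00 ± 0.01 (SD, n = 3, limma adjusted p = 1.04e-06), the clock-linked Bhlhe40 at -4.60 ± 0.02 (limma adjusted p = 5.93e-07) and Bhlhe41, at least 82.5-fold lower (limma adjusted p = 1.56e-06). Bhlhe41 was not well above background in iPS M13 cells on any array. Hey2 and Heyl were on the array and not measured.

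Of the 5 measured Groucho/TLE corepressors, which Hes and Hey proteins recruit, 2 were called higher and 2 lower, beside 18.7% and 25.8% of all genes. Tle1 was at 1.05 ± 0.02 (SD, n = 3, limma adjusted p = 4.79e-06) and 1.59 by its other probe, and Tle4 at 1.47 ± 0.12, with mix1 well above background on 1 array. Tle5, the short family member that lacks the repressor domain of the others, was at -1.39 ± 0.01 (limma adjusted p = 1.80e-06) and -1.78 by its other probe, and Tle2 at -3.91 ± 0.13, with iPS M13 cells well above background on 2. The list's median of 0.21 turned to -0.47 when the GC trend was removed, and was 0.58 with processed signals, 1.05 with median centring and 1.00 without within-array normalization. Under the last 2 of these settings 3 genes were called higher and 1 lower.

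In the Notch pathway, upstream of the Hes genes, 22 of 30 genes were measured. Of these, 3 were called higher, 5 lower and 14 neither, beside 18.7% of all genes called higher and 25.8% lower. Higher were the divergent ligand Dll3 at 2.67 ± 0.04 (SD, n = 3, limma adjusted p = 1.30e-06), the glycosyltransferase Mfng at 2.60 ± 0.08 (limma adjusted p = 3.34e-06) and the ligand Jag2 at 2.10 ± 0.06. Lower were the gamma-secretase subunits Psenen at -2.24 ± 0.01 (limma adjusted p = 7.90e-07), Aph1a at -1.41 ± 0.02 (limma adjusted p = 2.02e-06) and Ncstn at -1.13 ± 0.03, the ligand Jag1 at -1.32 ± 0.03 and the receptor Notch2 at -1.06 ± 0.08. For Notch2, iPS M13 cells were well above background on only 2 arrays. When both RNAs had to be well above background, 4 Notch pathway genes were called lower. The median of -0.48 became 0.08 with median centring, where 6 genes were called higher and 1 lower. Neurog1, Bhlha15, Twist2, Tle2, Tle4, Jag2, Jag1, Ncstn and Notch2 fell outside the rule for named genes and were chosen after their values were seen. The same holds for Pou5f1 and Lin28a above and for Bmp2, Bmpr1a, Smurf1, Smurf2, Nog, Grem1 and Fst below.

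In the BMP pathway, upstream of the Id genes, 24 of 29 genes were measured. Of these, 15 were called lower, 0 higher and 9 neither, beside 25.8% of all genes called lower and 18.7% higher. The median was -1.60 (-1.54 with 6 genes at their bounds). The secreted BMP inhibitor Chrd was at -6.61 ± 0.05 (SD, n = 3, limma adjusted p = 6.00e-07) by its brightest probe and -3.72 by the other. The inhibitory SMAD gene Smad6, itself a BMP target, was at -3.44 ± 0.36 (limma adjusted p = 8.67e-05). The list holds inhibitors as well as ligands and receptors, and its count of lower calls does not give the direction of signalling. These counts rest on the brightest probe of each gene. Among called genes with other tested probes, Nog, Chrd, Grem1 and Fst were more than 2-fold lower by every probe. Bmp2, Bmpr1a and Smurf2 each had another probe short of 2-fold, at -0.81, -0.71 and -0.98. Smurf1 was at 0.36 by its brightest probe and -1.18 by its other. With both RNAs well above background 9 genes were called lower, and with median centring 3 were called higher.

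**Figure D4:**
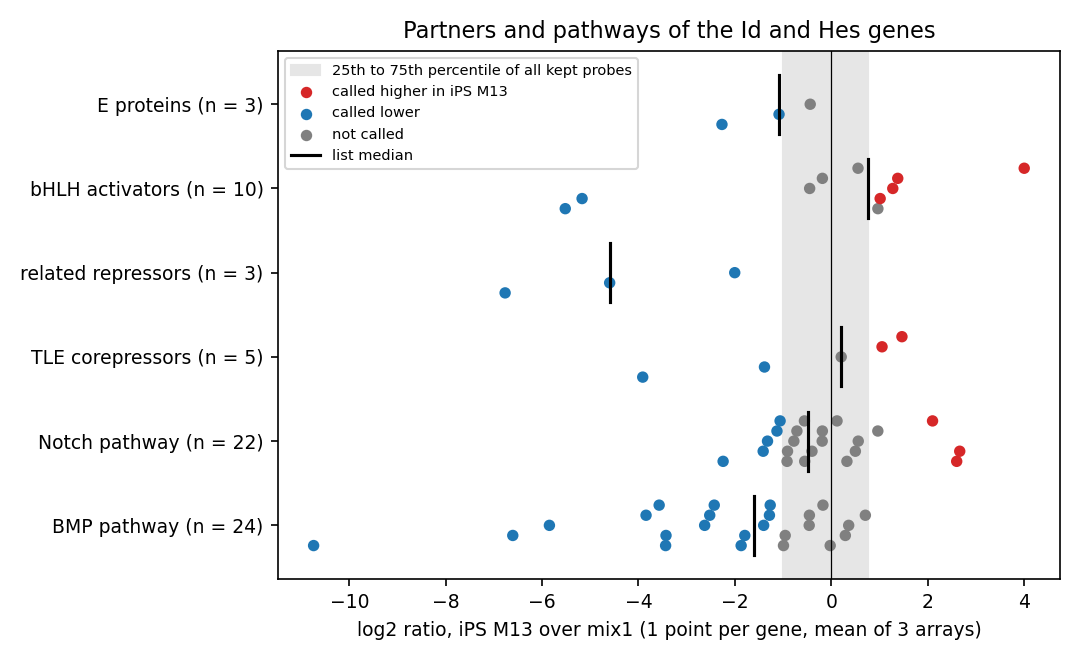
Log2 ratio of iPS M13 over mix1 (horizontal axis) of each measured gene, by its brightest tested probe, in the lists of partners and pathway genes (rows), with 1 point per gene (mean of 3 arrays) coloured by its call, the median of each list as a black line and the interquartile range of all tested probes as a grey band. Most BMP pathway and related repressor genes lie below 0, whereas the bHLH activators, TLE corepressors and Notch pathway genes lie on both sides.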

How the data were processed

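The files deposited by the authors give, per spot and channel, a mean intensity and a median local background, per the file headers. The submitters' processing notes name Agilent Feature Extraction (version 9.5.3.1 in the headers). That software also wrote processed intensities and a log10 ratio of Cy5 over Cy3, per the file headers. A value table deposited by the authors holds log2 values with no stated scale or direction. Against the log10 ratios its 3 columns had a slope of -3.32 and correlations across probes of -0.99987, -0.99996 and -0.99986, so it was read as log2 of Cy3 over Cy5. Its medians were -0.0413, -0.0282 and -0.0286, and whether it was centred is unknown. Well-above-background, saturation and outlier flags were used as deposited, per the file headers.

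Signals were corrected by normexp (offset 50) and loess within each array (control spots given weight 0) using limma 3.58.1 (R 4.3.3, with data.table of version 1.17.8). Outlier spots (205, 263 and 192 on replicates 1, 2 and 3) were left out, spots of a probe were averaged, and 24149 of 41012 probes passed the background filter. Log2 ratios of the 3 arrays were tested against 0 (lmFit, eBayes, Benjamini-Hochberg over all tested probes). The code was run on simulated ratios with independent noise, most of them with a true mean of 0. That simulation held no dye or normalization shift, so it cannot show how such shifts affect the calls. All 3 arrays lay on 1 slide, so no batch could be separated. The number of arrays limits the precision, and over the tested probes the ratios had a median SD of 0.0342. Probe names were updated through RefSeq by accession (10735 probes), other accession (1676), symbol (5577), synonym (3730) or gene ID (1217), and 18077 kept the file's name. Member probes were taken by the name in the files. Python 3.11.15 (pandas 2.3.3, numpy 2.4.6, matplotlib 3.10.9) handled names, sequences and figures.

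The members and lists were chosen with earlier results of these data known. Named were all members by every probe and, per list, the 2 highest and 2 lowest called genes with both RNAs well above background on all 3 arrays and 1 sign on all arrays, by the brightest tested probe, or all measured genes of a list with fewer than 5. Alternatives changed the background correction, the normalization, the filter, the GC trend, the minimum fold, the probe that stands for a gene and the arrays used.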

Additional observations from a re-analysis of the deposited data

How the results depend on the processing

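The alternatives that changed only the filter or the minimum fold reused the main ratios, so no direction could change there. The value table gave the same member ratios as the processed signals, to the digits given. Of 154 member probe values under these 12 alternatives, 147 kept their direction and call, 6 lost the call, 1 gained it and 0 reversed. The 6 were Id1 (-0.89 and -0.93) and the Hes6 probes (-0.55 and -0.60 for A_42_P800656, -0.66 and -0.71 for A_44_P143922) with median centring and without within-array normalization, and Hes3 gained a call without a minimum fold, which raised member probes called higher to 1. With each array left out in turn, all 39 member values kept their direction and call. The median of all tested probes shifted by 0.31 with processed signals or the value table, 0.59 with median centring, 0.54 without normalization and -0.26 with the GC trend removed. Probes called higher numbered 7472 (processed signals or value table), 8667 (median centring), 8311 (no normalization), 2603 (GC trend removed) and 11401 (no minimum fold, with 11784 lower), against 4467. The share of calls that were higher was 42.5%, and 56.9%, 67.2%, 65.7%, 26.7% and 49.2% in those settings. Among the lists, E proteins called lower were 1 under processed signals, the value table, median centring and no normalization. Activators called were 2 higher and 1 lower with both channels above background and 4 lower without a minimum fold. TLE genes called higher were 1 with the GC trend removed or both channels required, and 1 was lower with median centring, no normalization or both channels required. Notch genes called were 6 higher and 1 lower with median centring or no normalization, and 8 and 14 without a minimum fold. BMP genes called higher were 1 with processed signals or the value table and 3 with median centring, no normalization or no minimum fold, and 9 were lower with both channels required. The cause of these changes was not tested, apart from fewer genes being tested where both channels were required. Every ratio was taken within an array and so is already paired with mix1, and with 1 group of samples no further replicate block could be fitted. Dim signals limit Hes1, Hes2, Hes3, Hes5 and Hey1.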
